A study of Homo sapiens with 9 samples.

Results

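The genes described here are 10 immediate early and AP-1 genes, measured by 11 probes on each of 9 arrays of RNA from ALL-SIL cells. They were chosen by symbol: every probe was taken whose transcript accession belongs to *FOS*, *FOSB*, *FOSL2*, *JUN*, *JUNB*, *JUND*, *EGR1*, *IER2*, *IER3* or *DUSP1*. *IER3* has 2 probes and each other gene has 1. The arrays hold 57176 probes, of which 33586 passed the filter (above background, by Feature Extraction's flag, on 3 arrays or more) and were tested, and all 11 member probes were well above background on all 9 arrays. ALL-SIL is an established human T-ALL (T-cell acute lymphoblastic leukemia) cell line. All cells were electroporated, either with a non-targeting control siRNA or with *PHF6* siRNA1 or *PHF6* siRNA2, which lower the mRNA of the chromatin-associated protein *PHF6*, and no array of cells that were not electroporated was analysed here. Each of these 3 groups holds 3 arrays, numbered replicate 1 to 3 in the labels. Collection was 96 h after electroporation by most labels and 72 h by a free-text description. One *PHF6* siRNA was a single Silencer Select product and the other a SMARTpool of several siRNAs, and the sources used here do not say which of them is siRNA1. The paper calls the 3 samples of each kind independent, without further detail, and nothing in the labels states that the replicates are separate cultures. The p-values therefore measure the spread between these samples.

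Immediate early genes are transcribed within minutes of a signal, from promoters whose transcription factors are already in place and are switched on by MAP kinases. *FOS* and *JUN* family proteins pair through leucine zippers into AP-1, a factor that binds the sequence TGANTCA and passes a brief signal on to later genes, and the *JUN* proteins can also pair among themselves. *EGR1* is a zinc finger factor of the same early wave, *IER2* and *IER3* are short-lived early response proteins, and *DUSP1* is a nuclear phosphatase that switches MAP kinases off again. In T cells, AP-1 acts downstream of the T cell receptor, and in many cell types the same genes respond to stress, heat and handling.

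Promoter sequences are shown for *FOS*, *JUN* and *DUSP1*, whose levels moved together between replicate numbers. That of *EGR1* is shown as the 1 member with a CArG box inside the window searched. They come from RefSeq on the build GRCh38.p14, each covering the 250 bases before the gene's start, written 5′ to 3′ along the gene. Capitals mark every match, on either strand, to the CArG box, to TGACGTCA or its first part TGACG, to the AP-1 site TGANTCA, to the sequence GAANNTTC or to GCGNGGGCG. TGACGTCA is the cAMP response element, so each match of the longer motif holds the shorter one on both strands. GAANNTTC is the core of a heat shock element, GCGNGGGCG is an EGR binding sequence and the CArG box binds *SRF*.
FOS (chr14:75278578-75278827, plus strand): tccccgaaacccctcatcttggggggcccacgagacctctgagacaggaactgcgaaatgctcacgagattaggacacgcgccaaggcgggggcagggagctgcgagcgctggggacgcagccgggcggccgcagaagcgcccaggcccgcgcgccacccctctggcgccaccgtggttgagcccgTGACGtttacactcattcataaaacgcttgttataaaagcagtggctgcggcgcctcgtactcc
JUN (chr1:58784048-58784297, minus strand): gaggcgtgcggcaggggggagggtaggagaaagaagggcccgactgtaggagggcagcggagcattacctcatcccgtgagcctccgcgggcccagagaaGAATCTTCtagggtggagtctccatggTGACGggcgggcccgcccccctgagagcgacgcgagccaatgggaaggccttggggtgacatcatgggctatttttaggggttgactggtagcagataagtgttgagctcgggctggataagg
DUSP1 (chr5:172771196-172771445, minus strand): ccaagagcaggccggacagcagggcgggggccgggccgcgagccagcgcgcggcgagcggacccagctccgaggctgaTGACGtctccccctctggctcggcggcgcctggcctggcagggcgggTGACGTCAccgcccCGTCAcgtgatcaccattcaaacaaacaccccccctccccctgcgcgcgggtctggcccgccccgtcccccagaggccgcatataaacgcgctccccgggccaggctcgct
EGR1 (chr5:138465229-138465478, plus strand): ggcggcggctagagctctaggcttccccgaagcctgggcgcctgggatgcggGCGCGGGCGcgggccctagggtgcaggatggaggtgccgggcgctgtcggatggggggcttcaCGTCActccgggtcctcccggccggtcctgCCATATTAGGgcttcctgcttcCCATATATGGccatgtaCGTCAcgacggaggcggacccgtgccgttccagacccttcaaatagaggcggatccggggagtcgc

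RefSeq's table held a promoter for 9 of the 10 members, all but *IER3*. TGACG was found in 9 of these 9 windows, against 21.2% of the 35116 promoters in the table. *FOS* holds it once, starting 64 bases before the gene's start, and *DUSP1* holds 4 matches, 2 of them inside its TGACGTCA. The full TGACGTCA was found in *DUSP1* and *JUND*, 2 of 9 members, against 1.65% of all promoters. Within these 250 bases, *EGR1* was the 1 member with a CArG box, against 1.16% of all promoters. It had 2 matches, the nearer one starting 83 bases before the start. It was also the 1 member with GCGNGGGCG, which 8.41% of all promoters hold. Bases further upstream were not searched, so a CArG box of *FOS* or another member there would be missed. *JUN* was the 1 member with GAANNTTC, 150 bases before its start, against 5.78% of all promoters. TGANTCA was found in 0 of 9 windows, against 6.57% of all promoters. Only the exact spellings were sought, so variants such as TGACATCA in the *JUN* window were not counted and stay in lower case. A count of 0 therefore does not show that AP-1 sites are absent. These matches describe letters in a window and no binding was measured.

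Values below are on the generalized log2 scale of the VSN transformation, on which a difference of 1 is close to 2-fold for bright probes and understates the change of dim ones. The labelled cell type was checked first: 9 of 9 T-lineage lymphoblast markers were well above background on all 9 arrays. Of 4 B cell markers, 2 were well above background on all 9 arrays, *CD79A* among them, while *MS4A1* was so on 3 and *CD22* on 0. Of 4 myeloid markers, *CD14* and *ITGAM* were well above background on all 9. The summed intensity of the myeloid list, 205 to 297 on all arrays, compares with 145803 to 195064 for the T-lineage list. Replicates 1 and 2 of each group lay on one slide and replicate 3 of each group on another. *PHF6* itself was at 11.03 ± 0.16 (SD, n = 3) with control siRNA, 9.40 ± 0.28 with siRNA1 and 9.20 ± 0.069 with siRNA2, and its 6 siRNA arrays all lay below the 3 control arrays. *PHF6* fell by 1.73 (SE 0.14) under both siRNAs, a 3.31-fold lower level (limma, adjusted p = 0.00247).

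**Figure D1:**
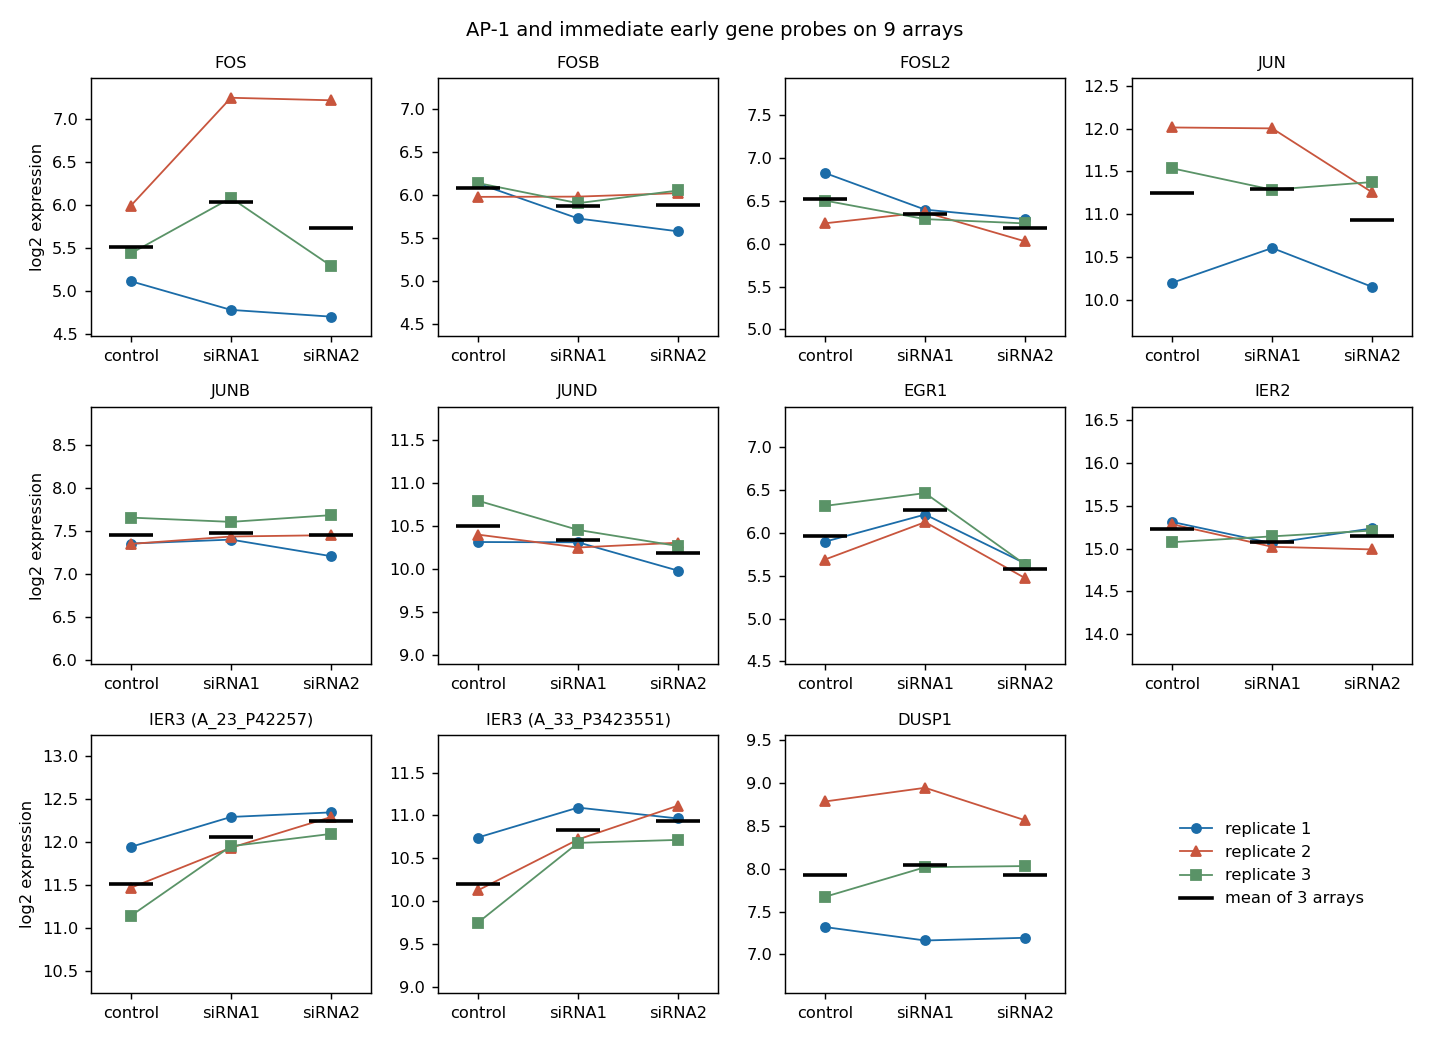
Each panel shows 1 member probe, with the treatment on the x axis (control, control siRNA; siRNA1 and siRNA2, the *PHF6* siRNAs) and expression on the generalized log2 scale on the y axis; points are single arrays, lines join arrays of the same replicate number and black bars are the mean of 3 arrays. For *FOS*, *JUN* and *DUSP1*, replicate 1 is lowest in every treatment, and of these only *DUSP1* separates all 3 replicate numbers. The *IER3* lines climb from control to siRNA in each replicate number.

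The first question was whether any of these genes changed when *PHF6* was lowered. *IER3*, which takes part in cell survival and ERK signalling, was the member with the largest higher level under the siRNAs, at 1.55-fold and 1.60-fold by its 2 probes, and it was the 1 member called between treatments, in the fit with the replicate block and not in the fit without it. With the treatment group alone in the limma fit, 0 of 11 member probes passed an adjusted p of 0.05 for both siRNAs against control siRNA, for siRNA1 or siRNA2 against control siRNA, or for siRNA2 against siRNA1. In these 4 comparisons 2, 2, 2 and 1 member probes had an unadjusted p under 0.05, as had 7.43%, 5.93%, 5.9% and 2.52% of all probes. After adjustment, of all probes tested, 0.00893%, 0.00893%, 0.0119% and 0% were called in the same comparisons. The replicate numbers pair the arrays, and a blocked fit, which compares arrays within their numbers, called the shares 2.74%, 0.947%, 1.65% and 0.0387% of all probes. This blocked fit called 2 of 11 member probes for both siRNAs, both of them *IER3*, 0 for siRNA1, 1 *IER3* probe for siRNA2 and 0 for siRNA2 against siRNA1. The siRNA1 and siRNA2 comparisons share their 3 control arrays and are not independent. In bulk RNA, fewer cells that express a gene and less of its RNA per cell cannot be told apart.

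**Figure D2:**
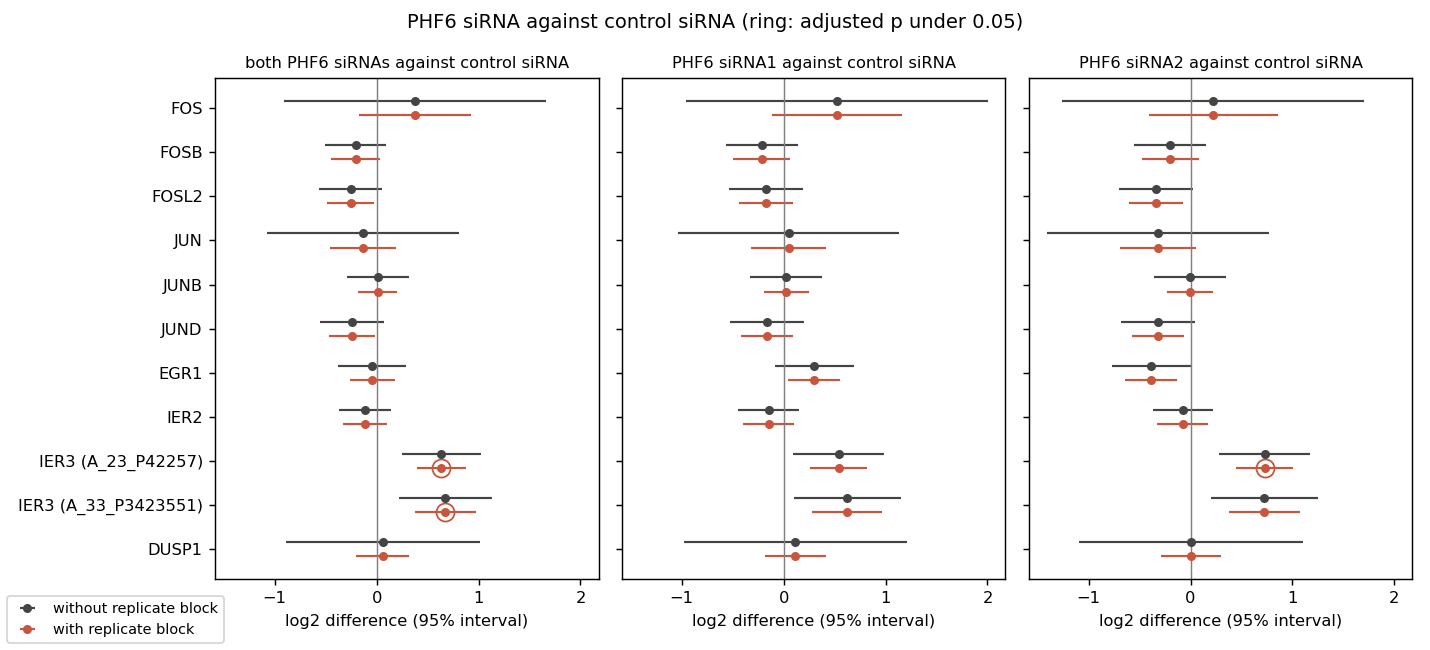
Log2 difference from control siRNA of each member probe, with its 95% interval, for both siRNAs together and for each siRNA; dark points come from the limma fit without the replicate block, red points from the fit with it, and rings mark an adjusted p under 0.05. The block narrows the intervals of *FOS*, *JUN* and *DUSP1* most, and rings appear at both *IER3* probes for both siRNAs and at 1 of them for siRNA2.

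For the *IER3* probe A_23_P42257, the control siRNA arrays read 11.94, 11.47 and 11.14 in replicates 1 to 3, the siRNA1 arrays 12.29, 11.93 and 11.95, and the siRNA2 arrays 12.34, 12.29 and 12.09. Each of the 6 siRNA arrays was above the control array of its own replicate number, but the groups overlapped, since the control array of replicate 1 was higher than the siRNA1 array of replicate 2. The difference was 0.63 (SE 0.17, 95% interval 0.25 to 1.02, limma adjusted p = 0.616), and with the replicate block 0.63 (SE 0.11, 0.39 to 0.88, adjusted p = 0.0231). The other *IER3* probe, A_33_P3423551, read 10.74, 10.13 and 9.75 with control siRNA, 11.09, 10.72 and 10.68 with siRNA1, and 10.96, 11.12 and 10.72 with siRNA2. Its 6 siRNA arrays were again each above their own control, and again the control of replicate 1 reached into the siRNA range. Its difference was 0.67 (SE 0.21, limma adjusted p = 0.644), or with the block SE 0.13 and adjusted p = 0.034. Being above their own control in 6 of 6 arrays was shared by 2 of 11 member probes, both of *IER3*, and by 10.7% of all probes. No member had all siRNA arrays above all control arrays, a pattern of 1.84% of all probes.

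The gap between siRNA and control for *IER3* differed among the replicate numbers. Averaged over both siRNAs, A_23_P42257 was higher than its control by 0.38 in replicate 1, 0.65 in replicate 2 and 0.88 in replicate 3, and A_33_P3423551 by 0.29, 0.79 and 0.95. In the fit without the block, leaving out the control array of replicate 3 gave differences of 0.45 and 0.45. The control mean then held replicates 1 and 2 only. That fit called neither probe with all arrays either, so it cannot show whether the blocked call rests on this array. The blocked call depended on the intensities used. With VSN on the processed signal the limma adjusted p values were 0.0659 and 0.0802. With scaling to the 75th percentile they were 0.0707 and 0.0869. With any 1 replicate number left out the blocked fit did not call either probe (limma adjusted p 0.0508 to 0.142). Under siRNA1 the differences were 0.54 and 0.62 (blocked adjusted p = 0.0733 and 0.0847) and under siRNA2 0.73 and 0.72 (blocked adjusted p = 0.031 and 0.0514). Between the siRNAs, *IER3* differed by 0.19 (95% interval -0.26 to 0.63) and 0.10 (-0.42 to 0.62), with siRNA2 higher.

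*EGR1* had values of opposite sign under the 2 siRNAs, neither of them called. Its spots were dim, at 57 to 110 intensity units against 23 to 27.5 for the negative controls. The arrays read 5.89, 5.69 and 6.31 with control siRNA, 6.21, 6.12 and 6.46 with siRNA1, and 5.64, 5.47 and 5.63 with siRNA2. All 3 siRNA2 arrays lay below all other arrays, and each siRNA1 array lay above the control array of its number, although siRNA1 and control overlapped. The share of all probes with either pattern was not counted, so how unusual they are is not known. The group means were 5.58 ± 0.096 for siRNA2, 5.96 ± 0.32 for control and 6.27 ± 0.18 for siRNA1 (SD, n = 3), so siRNA2 stood -0.39 from control and siRNA1 0.30 from it. Neither step passed the threshold (limma adjusted p = 0.844 and 0.866, or 0.112 and 0.194 with the block). The distance from siRNA1 to siRNA2 was -0.69 (SE 0.18, 95% interval -1.07 to -0.30), with a limma adjusted p of 1, and of 0.0994 with the replicate block.

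**Figure D3:**
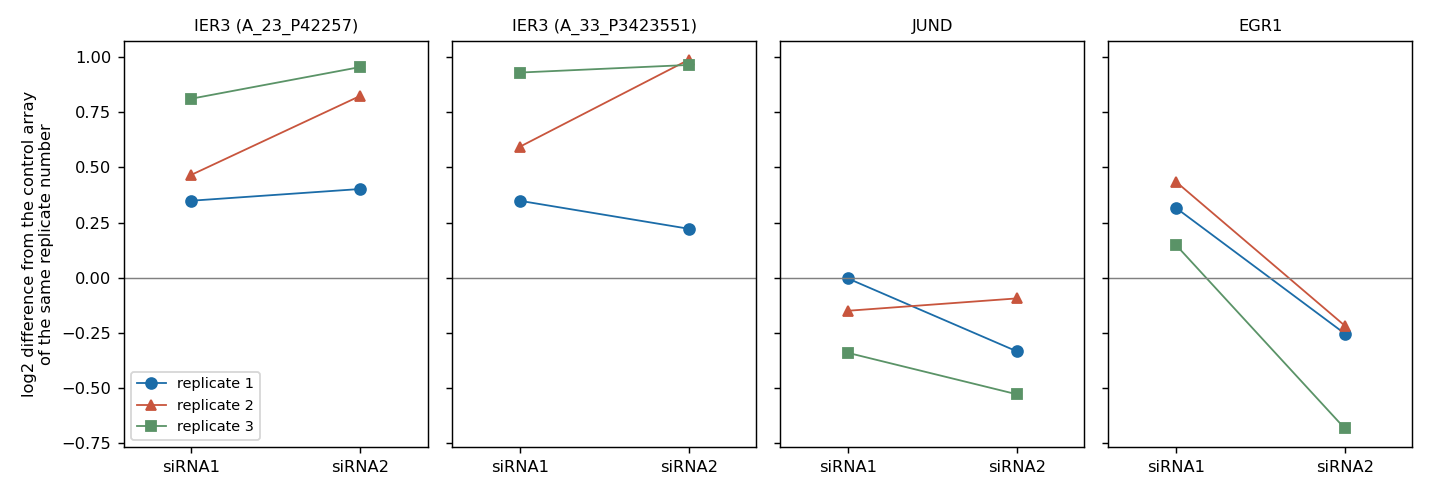
Log2 difference of each siRNA array from the control array that bears its replicate number (y axis), for siRNA1 and siRNA2 (x axis), with 1 line per replicate number, for both *IER3* probes, *JUND* and *EGR1*. All 6 points of each *IER3* probe lie above 0 and all 6 of *JUND* below it, while *EGR1* lies above 0 with siRNA1 and below 0 with siRNA2 in every replicate number.

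Among the *JUN* family, *JUND*, the member that is expressed more steadily than its relatives in most cells, read 10.31, 10.40 and 10.80 with control siRNA, 10.31, 10.25 and 10.46 with siRNA1, and 9.98, 10.31 and 10.27 with siRNA2. All 6 siRNA arrays were below their own control, with differences of -0.53 to -0.0033, the smallest gap being that of siRNA1 in replicate 1. This pattern was found in 1 of 11 member probes and in 10.8% of all probes, and the groups overlapped. The difference was -0.24 (SE 0.14, limma adjusted p = 0.746, or 0.197 with the block). *JUNB*, an AP-1 subunit that often restrains *JUN*, read 7.36, 7.35 and 7.66 with control siRNA and between 7.21 and 7.69 on the siRNA arrays, so that the groups coincided. Its difference was 0.011 (95% interval -0.29 to 0.32). *JUN*, the main transactivating partner, had a wider spread, from 10.15 to 12.01, within which the treatments overlapped fully, and its difference of -0.14 had an interval from -1.08 to 0.81.

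The *FOS* family was likewise not separated by treatment. *FOSB* read 6.14, 5.98 and 6.14 with control siRNA and 5.58 to 6.06 on the siRNA arrays, a difference of -0.21 (95% interval -0.51 to 0.096). *FOSL2*, a *FOS* relative without a strong activation domain, read 6.82, 6.24 and 6.50 with control siRNA and 6.03 to 6.40 on the siRNA arrays. Of its 6 siRNA arrays 5 were below their own control, and the difference was -0.25 (95% interval -0.57 to 0.057, limma adjusted p = 0.736, or 0.188 with the block). *FOS* was at 5.52 ± 0.44 with control siRNA, 6.04 ± 1.24 with siRNA1 and 5.74 ± 1.32 with siRNA2 (SD, n = 3). Its differences from the own control array ran in opposite directions: with both siRNAs it was higher in replicate 2, by 1.26 and 1.23, and it was lower in replicate 1, by -0.33 and -0.41, while in replicate 3 siRNA1 was higher by 0.65 and siRNA2 lower by -0.15. The fitted difference of *FOS* was 0.37 (95% interval -0.91 to 1.66).

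Of the remaining members, *IER2* read 15.31, 15.28 and 15.07 with control siRNA and 14.99 to 15.24 on the siRNA arrays, a difference of -0.11 (95% interval -0.37 to 0.14). *DUSP1* differed by 0.060 (95% interval -0.89 to 1.01). No member had all siRNA arrays below all control arrays, which 2.05% of all probes had. Over the 10 genes, each by its brightest probe, 4 were above 0 and 6 below in the comparison of both siRNAs with control, with a median of -0.077 beside -0.036 over all genes tested.

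The surrounding pathway gave few calls between treatments. None of the 12 other AP-1 and related bZIP genes tested, 10 MAP kinase phosphatase and feedback genes or 27 MAP kinase cascade and *SRF*, TCF and CREB regulators was called by limma in any siRNA comparison, without or with the block. In the comparison of both siRNAs 1, 1 and 1 of them had an unadjusted p under 0.05 without the block, where 7.43% of all probes had one, and 3, 5 and 6 with it, where 21.8% had. Of 30 other immediate early and early response genes tested, 1 was called, with the block: *KLF10*, a zinc finger repressor induced by TGF-beta. *KLF10* read 10.85, 10.64 and 10.73 with control siRNA, 10.57, 10.06 and 9.90 with siRNA1, and 10.44, 9.68 and 9.77 with siRNA2. Its 6 siRNA arrays lay below the 3 control arrays, and it fell by 0.67 (SE 0.20, limma adjusted p = 0.644, or SE 0.11 and 0.0224 with the block). Of the T-lineage markers, 9 of 9 had a value below 0 in this comparison, with a median of -0.15 beside -0.036 over all genes tested. With the block, which called 2.74% of all probes here, *CD7* (-0.76) and *PTCRA* (-0.73), the invariant chain of the pre-T cell receptor, were called (limma adjusted p = 0.0124 and 0.00837). Their part in the *IER3* difference was not tested. Of 9 heat shock genes 0 were called between treatments, and 0 had an unadjusted p under 0.05 without the block and 3 with it, against the same shares of all probes.

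The second question was how the members varied with the replicate number, which all 3 treatments share. *FOS*, *JUN* and *DUSP1* were 3.88-fold, 2.70-fold and 2.90-fold higher in replicate 2 than in replicate 1 with the treatment in the fit, whereas no other member was called. That is 3 of 11 member probes called, all higher, beside 8.5% of all probes called in either direction. Replicates 1 and 2 lay on the same slide. The labels do not say what the replicate number stands for beyond a numbered replicate.

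*FOS* read 5.12, 4.78 and 4.70 in replicate 1 (control, siRNA1 and siRNA2), 5.99, 7.25 and 7.22 in replicate 2, and 5.44, 6.08 and 5.29 in replicate 3. All 3 arrays of replicate 1 lay below the other 6. The difference of replicate 2 from 1 was 1.96 (SE 0.28, limma adjusted p = 0.00391), and it was 0.88 with control siRNA, 2.47 with siRNA1 and 2.52 with siRNA2. The *FOS* spot is dim, at 34 to 44 intensity units in replicate 1 and 70 to 169 in replicate 2, over a local background of 21 to 24 on these arrays. The size of the difference varied with the background handling, from 1.09 with normexp and quantile normalization to 2.82 with scaling to the 75th percentile, and it was called in each of these.

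*JUN* read 10.20, 10.61 and 10.15 in replicate 1, 12.01, 12.00 and 11.26 in replicate 2, and 11.54, 11.29 and 11.38 in replicate 3. Replicate 1 was below all other arrays, and replicates 2 and 3 overlapped. The difference of replicate 2 from 1 was 1.43 (SE 0.17, limma adjusted p = 0.00153), with 1.81 for control siRNA, 1.39 for siRNA1 and a smaller value for siRNA2. *DUSP1* read 7.32, 7.16 and 7.19 in replicate 1, 8.78, 8.94 and 8.56 in replicate 2, and 7.67, 8.02 and 8.03 in replicate 3. Here the 3 replicate numbers did not overlap at all. The difference of replicate 2 from 1 was 1.54 (SE 0.13, limma adjusted p = 0.000386), with 1.46, 1.78 and 1.37 in the 3 treatments. *FOS*, *JUN* and *DUSP1* make 3 of 11 member probes whose replicate 1 arrays lay below the other 6, beside 4.46% of all probes, and *DUSP1* was the 1 member probe whose replicate 2 arrays lay above the other 6, beside 4.97%.

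The other members gave smaller values in this comparison. *FOSB* was at 0.18, *JUND* at 0.12 and *JUNB* at 0.092, while *IER2* was at -0.10, *EGR1* at -0.16, *FOSL2* at -0.29 and the *IER3* probes at -0.30 and -0.28. *FOSL2* and the *IER3* probe A_23_P42257 had unadjusted p values of 0.0343 and 0.0396 in limma, which gave adjusted p values of 0.166 and 0.18. In the *FOS* and *JUN* families the 2 calls were *FOS* and *JUN*, and the 95% intervals of *FOSB* (-0.098 to 0.46), *JUNB* (-0.13 to 0.32) and *JUND* (-0.14 to 0.37) ended below those of *FOS* (1.32 to 2.59) and *JUN* (1.06 to 1.81).

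**Figure D4:**
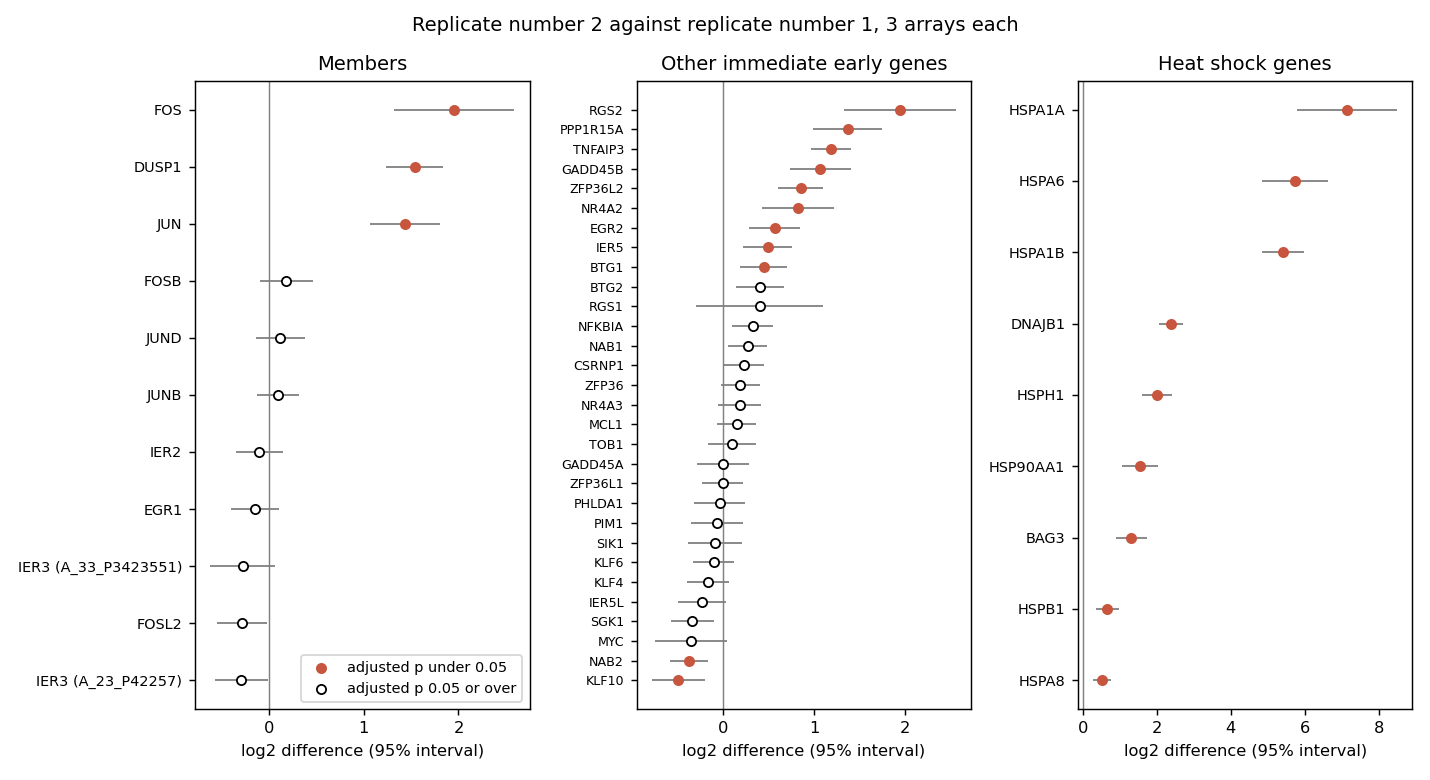
Log2 difference of replicate number 2 from replicate number 1 (x axis, with its 95% interval) for the 11 member probes, 30 other immediate early and early response genes and 9 heat shock genes, with filled points for a limma adjusted p under 0.05; the x axes differ in range. *FOS*, *DUSP1* and *JUN* stand at 1.96, 1.54 and 1.43, *RGS2* leads the second list at 1.95, and all 9 heat shock genes are filled.

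Other immediate early genes differed between replicates 2 and 1 as well. Of 30 tested, 9 were higher and 2 lower by limma, beside 8.5% of all probes called in either direction. The median of the list was 0.18 beside -0.035 over all genes. The largest were *RGS2*, a regulator of G protein signalling (1.95, SE 0.28), *PPP1R15A*, a stress-induced phosphatase subunit (1.37, SE 0.17), *TNFAIP3*, an inhibitor of NF-kB signalling (1.19, SE 0.097), and *GADD45B*, a stress sensor upstream of p38 and JNK (1.07, SE 0.15). *KLF10* (-0.50, SE 0.13) and *NAB2*, a corepressor of the EGR factors (-0.38, SE 0.095), were lower. The limma adjusted p values of these 6 genes were 0.000331 to 0.0445. *RGS2* resembled *FOS* in that the siRNA arrays of replicate 2 (11.22 and 11.14) were higher than the control array (9.52), with all replicate 1 arrays between 8.65 and 8.71. In replicate 3 both siRNA arrays of *RGS2* were above control, whereas for *FOS* only siRNA1 was.

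Of 10 MAP kinase phosphatase and feedback genes tested, 3 were higher in replicate 2 and 2 lower. For this list and those that follow, 8.5% of all probes were called in either direction. *DUSP10* (0.77) and *DUSP16* (0.66), which act mainly on p38 and JNK, and *DUSP2* (0.56) were higher, as *DUSP1* was. *DUSP6*, a cytoplasmic ERK phosphatase (-0.87), and *SPRED2*, an inhibitor of the RAS to ERK pathway (-0.58), were lower. Of 27 kinases and regulators, 3 were higher, among them *MAPK14* (0.64) and *SRF* (0.41), and 0 were lower. Of 12 other AP-1 and bZIP genes, *ATF2*, a partner of *JUN* (0.48), and *MAFK* (0.66) were higher, and *JDP2*, a repressor that dimerizes with *JUN* (-0.64), and *MAF* (-0.38) were lower. The limma adjusted p values of the genes given here with a difference lay between 0.00415 and 0.0486.

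Heat shock genes, listed to follow handling and stress, moved with the same replicate number. In replicate 2 against 1, 9 of 9 were higher by limma, with a median of 2.01 beside -0.035 over all genes. The inducible HSP70 genes differed most: *HSPA1A* by 7.14 (SE 0.61), *HSPA6* by 5.74 (SE 0.40) and *HSPA1B* by 5.40 (SE 0.26). The cochaperone *DNAJB1* followed at 2.39 (SE 0.14). The limma adjusted p values of the 9 genes were 2.82e-05 to 0.0176. *HSPA1A* and *HSPA6* were each well above background on 8 of 9 arrays and dim in replicate 1, so the size of their differences is uncertain. The summed intensity of the 9 genes was 94987 to 135667 on the arrays of replicate 1, 273899 to 333756 on those of replicate 2 and 185544 to 277329 on those of replicate 3. *HSPA1A* read 4.68, 4.72 and 4.94 in replicate 1, 9.81, 12.83 and 13.12 in replicate 2, and 7.01, 11.10 and 9.57 in replicate 3 (control, siRNA1 and siRNA2). As for *FOS*, the control array was the lowest of its number in replicate 2, and siRNA1 was the highest in replicate 3. The orders differed elsewhere. In replicate 1 the control array was the highest for *FOS* and the lowest for *HSPA1A*. In replicate 3 siRNA2 was below control for *FOS* and above it for *HSPA1A*. The part of the heat shock genes in the differences of *FOS*, *JUN* and *DUSP1* was not tested.

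**Figure D5:**
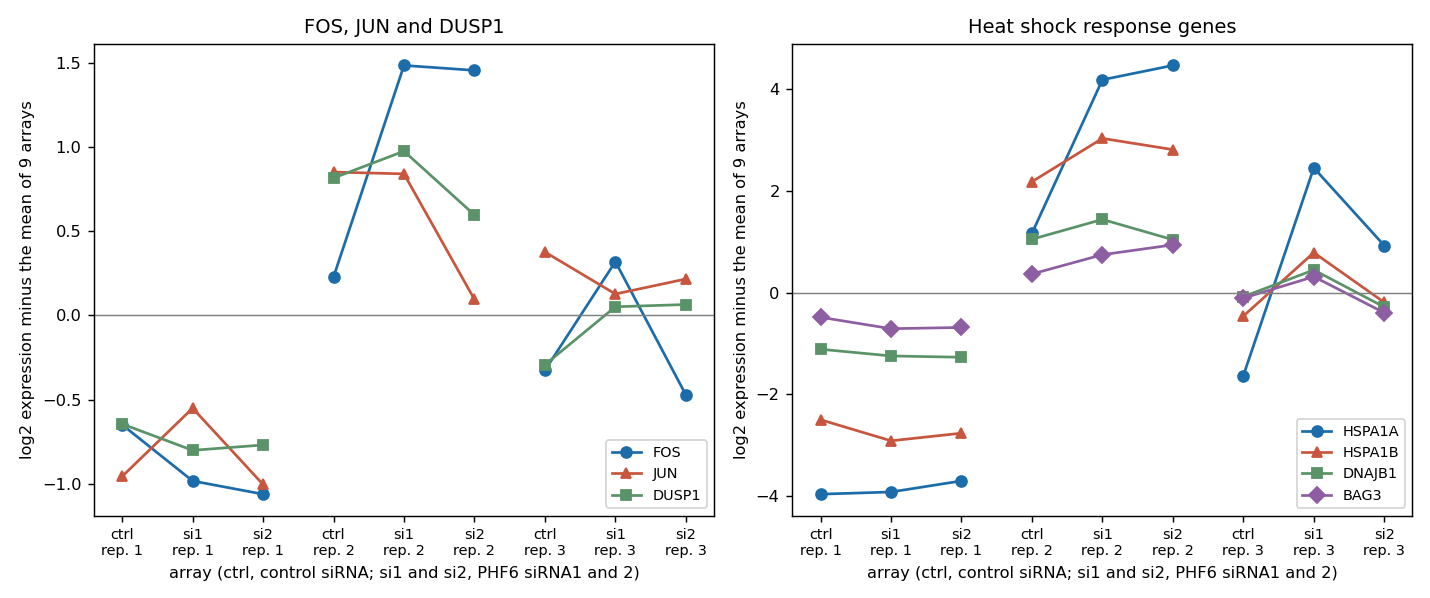
Log2 expression minus the mean of the 9 arrays (y axis) for *FOS*, *JUN* and *DUSP1* on the left and for 4 heat shock response genes on the right, on each array in order of replicate number and treatment (x axis); lines join the 3 arrays of a replicate number and the y axes differ in range. All 3 arrays of replicate 1 lie below 0 for all 7 genes and all 3 of replicate 2 lie above 0.

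Replicate 3 lay on its own slide, so replicate number and slide cannot be told apart in its comparison with replicates 1 and 2, in which 33.2% of all probes were called. Of the 11 member probes 4 were called. *JUNB* was higher by 0.28 (SE 0.087, limma adjusted p = 0.0321), and its 3 replicate 3 arrays lay above the other 6, the 1 member probe with this pattern beside 10.1% of all probes. *EGR1* was higher by 0.30 (adjusted p = 0.0431), and the *IER3* probes were lower by -0.32 and -0.41 (adjusted p = 0.0475 and 0.0395). *FOS* (-0.24), *JUN* (0.36) and *DUSP1* (-0.088) were not called. These 4 calls sat close to the threshold and fell to between 0 and 2 in 11 of 17 alternatives, among them 8 of the 9 that leave out 1 array.

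The other lists also gave calls in this comparison, in which 33.2% of all probes were called in either direction. Of the 12 other AP-1 and bZIP genes, 1 was higher and 6 were lower, led by *JDP2* (-0.97), the stress-induced *ATF3* (-0.47), *FOSL1*, a further *FOS* relative (-0.46), and *MAF* (-0.40). Of the 30 other early genes, *MYC* (0.57), *SGK1* (0.35) and *KLF4* (0.33) were higher, and *GADD45B* (-1.02), *TNFAIP3* (-0.54), *PPP1R15A* (-0.45) and *KLF6* (-0.30) were lower. Of the 10 feedback genes, *SPRY4* was higher (0.43) and *SPRY1* lower (-0.60), both of them inhibitors of receptor signalling to ERK. Of the 27 kinases and regulators, *SRF* was higher (0.50) and 6 were lower, led by *RPS6KA3* (-0.38), *BRAF* (-0.37), *RPS6KA5* and *MAP2K1* (both -0.34). *HSPH1* (0.47) was the 1 heat shock gene called. The limma adjusted p values of the genes named here were 0.000897 to 0.0483.

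The likeness of levels over the 9 arrays was described by Pearson's r. The correlation was 0.88 for *FOS* and *DUSP1*, 0.87 for *JUN* and *DUSP1* and 0.68 for *FOS* and *JUN*, over 9 arrays that share the 3 replicate numbers, whereas *FOS* had 0.37 with *FOSB* and 0.16 with *JUNB*. The 2 *IER3* probes had 0.98. Of 14649 other genes, the 3 most like *FOS* were *BAG3*, a cochaperone of HSP70 (0.98), *STAM* (0.97) and *RDH16* (0.97). Those most like *DUSP1* were *CAPRIN1* (0.99), *ACTRT3* (0.98) and *LRRC70* (0.98), and those most like *JUN* were *BROX*, *FUNDC2* (both 0.97) and *HMMR* (0.96). For *FOSB* they were *FAM3D*, *SSTR3* and *PTH2* (0.94 each), and for *FOSL2* *LINC00482* (0.97), *SLC13A3* (0.94) and *FBXO6* (0.93). For *JUNB* they were *CHCHD5*, *LINC01148* (0.98 each) and *NUBP2* (0.97), and for *JUND* *NSFL1C*, *LDHC* (0.96 each) and *NAA11* (0.95). For *EGR1* they were *LRFN2* (0.92), *TAS1R3* and *KIRREL3* (0.91 each), for *IER2* *NF2* (0.95), *MAIP1* and *B3GALT6* (0.94 each), and for the brighter *IER3* probe *STX17-DT*, *PTPRU* (0.95 each) and *SLC22A13* (0.94). With 9 arrays and 14649 genes to choose from, such values are a description of these arrays.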

How the data were processed

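The authors hybridized RNA of each of 9 samples to a one-colour custom Agilent array and deposited, per spot, its fluorescence intensity, not normalized between arrays. The labels name Feature Extraction 9.1 and the file headers 10.5.1.1. Deposited flags, with other values of 0 or 1, mark outlier, saturated and background spots, and no spot was saturated. A deposited table of the authors' log2 values, normalized with VSN, served as an alternative.

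Here the VSN model was fitted by code written for this purpose, since the package was not installed, to the median intensity without background subtraction, with 7 iterations of trimming at a quantile of 0.9. Outlier spots were left out and repeated spots averaged. The tests took in probes that were flagged as well above background on 3 or more arrays. Symbols come from RefSeq's accessions, matched for 25728 of 57176 probes, and no array coordinates are given, because arrays and table use different builds.

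Groups came from the labels and were fitted with limma 3.58.1 in R 4.3.3, 3 groups sharing one spread, with Benjamini-Hochberg adjustment over all probes tested and a threshold of 0.05. Replicate numbers were contrasted with treatment as an additive term. Arrays have no read depth, and their number sets how precise the values are. The normalization and the fits were tested on simulated data.

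Replicate numbers come from the titles. Deviations from the group means correlated at 0.31 to 0.75 in the 9 pairs of arrays with the same number, so the numbers pair the arrays. In the 18 other pairs they correlated at -0.57 to 0.13. Deviations within a group cancel out, so positive values in same-number pairs bring negative ones in the other pairs. Those other pairs are therefore not separate evidence of pairing.

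The members and gene lists were chosen with earlier results of these data known. Named genes are the members, *PHF6*, the 3 genes most like each member, and from each list up to 4 per direction among those called. B cell and myeloid markers are named by detection only, outside this rule. *RGS2* and *HSPA1A* array values were picked after they were seen. Some genes of these lists are counted but not reported here by name. Alternatives were other intensities and normalizations, other filters, outlier spots kept, a trended robust prior, the replicate number or slide as a block, only the groups compared, and each array left out.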

Additional observations from a re-analysis of the deposited data

Results flagged for a closer look

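*EGR1* was singled out because every array under one siRNA moved one way and every array under the other moved the opposite way. How many of all probes do the same was not counted. With siRNA1 it was higher than the control array of its number in 3 of 3 replicate numbers, by 0.30 on average on the log2 scale (0.32, 0.44 and 0.15). With siRNA2 it was lower in 3 of 3, by -0.39 on average (-0.25, -0.22 and -0.68). Both averages use the same 3 control arrays. The difference between the siRNAs was tested directly and was -0.69, with a limma adjusted p of 1 without and 0.0994 with the replicate block. The *EGR1* spots were at 57 to 110 intensity units, and the part of their dimness was not tested. Groups of 3 arrays were not screened for single arrays that stand apart.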

How the results depend on the processing

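The calls between treatments depended on the replicate block. Without it, 0 member probes were called under each alternative. With it, both siRNAs against control gave 2 called members with VSN on the median intensity, with normexp and quantile normalization, with the deposited table and with the filter on all 9 arrays. The siRNA1 comparison then gave 1 with normexp and quantile and 1 with the filter on all 9 arrays, and the siRNA2 comparison gave 2, 1, 1 and 2 with normexp and quantile, the deposited table, the block alone and the filter on all 9 arrays. The comparison of the siRNAs gave 0 in 28 alternatives. For both siRNAs together, the called members were the 2 *IER3* probes, with higher levels, in each of the 4 settings.

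For replicate 2 against 1, 17 of 17 alternatives gave 3 called members, *FOS*, *JUN* and *DUSP1*. For replicate 3 against 1 and 2 the count of 4 became 2 with VSN on the processed signal, 2 with scaling to the 75th percentile and 0 without a filter, and 0 to 4 with 1 array left out. The causes were not tested.

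Values near 0 changed sign for both siRNAs against control. *JUNB* went from 0.011 to -0.037 with VSN on the processed signal, -0.017 with 75th percentile scaling and -0.0016 with normexp and quantile, each also with the block, to -0.030 in the blocked fit without number 2, and ranged from -0.048 to 0.11 with 1 array left out. *EGR1* went from -0.042 to 0.013 with the deposited table, also with the block, to 0.070 in the blocked fit without number 3, and ranged from -0.18 to 0.13. *FOS* went from 0.37 to -0.062 in the blocked fit without number 2. *DUSP1* went from 0.060 to -0.085 in the blocked fit without number 3 and ranged from -0.24 to 0.49, and *JUN*, at -0.14, ranged from -0.66 to 0.24. None of these was called. Under each scaling the median difference of all probes lay between -0.029 and -0.00054. Dim spots of *FOS*, *FOSB*, *FOSL2* and *EGR1* limit what small differences in them can show.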
